A study of Homo sapiens with 96 samples.

Results

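The human genome holds 516 protein-coding genes whose GENCODE symbol starts with ZNF, and 32 of them (6.20%) hosted at least 1 listed A-to-I RNA editing site in K562 cells, a human line derived from a chronic myeloid leukemia. A site was counted as a member when it lay within such a gene, on the strand of that gene, whatever genomic element or class the list gave it. This rule found 108 of the 4149 sites in the list. Of these, 107 had been called from RNA-seq and 1, in ZNF551, by Sanger sequencing only. The rule used position and strand and no editing level. The share of all protein-coding genes with a listed site was not counted, so the 6.20% is a description and is not read as high or low.

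The list was made by the authors from strand-specific RNA-seq of rRNA-depleted total RNA and holds, per site and sample, the edited share of reads as a fraction from 0 to 1, called the editing level. A site is called found in a sample here when its level was above 0, since 0 stands both for sites with too few reads and for sites with no edited read, and the read depth at each site is unknown. The 96 samples used here cover 93 conditions, of which 90 had 1 sample and 3 had 2, so most single conditions have no replicate check. Expression of the host genes and of K562 markers was not analysed here, so where a site was not found, less editing and less host RNA cannot be told apart.

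A total of 80 samples were plain K562 cells. Of these, 26 were treated with imatinib, etoposide, romidepsin or the vehicle DMSO for up to 48 h, or were untreated. In 19 samples, 6 h of DMSO, etoposide, SN-38, talazoparib or cyclophosphamide was followed by actinomycin D, a blocker of transcription, for 0 to 6 h. The alpha-amanitin set had 10 samples, 8 of them after 6 h of DMSO or etoposide, and alpha-amanitin inhibits RNA polymerase II. Another 10 samples received DMSO or the combined inhibitors AZ-20-KU-60019-NU7441 for 3 h and then etoposide, SN-38, talazoparib, mirin or DMSO. The wash-out set had 9 samples, with 6 h of DMSO, SN-38 or etoposide and then a wash for 0, 2 or 6 h. Rapamycin or Torin1 was given to 4 samples for 3 or 6 h, and 2 samples had actinomycin D alone for 2 or 6 h. The other 16 samples were derivative lines given doxycycline or water for 2 to 13 d, and their labels read AsiSI-overexpression, Cas9_overexpression, LINE_overexpression, CSB_shRNA_KD, LIG3_shRNA_KD and MRE11A_shRNA_KD. The labels do not say whether a derivative line was 1 clone. Etoposide and romidepsin samples of the time course carry names that conflict between the list and a table of the study, so no comparison here sets those agents against each other.

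Genes of the ZNF family mostly encode proteins with arrays of C2H2 zinc fingers, short units folded around a zinc ion that read DNA, joined by a conserved linker. Many of them also carry a KRAB domain, which recruits TRIM28 and with it chromatin silencing factors to transposable elements and other targets. The family is crowded into clusters of related paralogs, above all on chromosome 19. ADAR enzymes deaminate adenosine to inosine in double-stranded RNA, often where inverted copies of a sequence in 1 transcript fold back on each other, and inosine is read as G.

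The following sites carry the results below, with 14 bases of the GRCh38 reference on each side, read 5′ to 3′ on the strand of the host gene. The capital marks the listed adenosine. First come the most recurrent site of ZNF514 and its neighbour, 1 site from the facing arm of the same 3′ UTR, the most recurrent site of each of the facing arms in an intron of ZNF215, and the most recurrent site of ZNF891.
ZNF514 chr2:95145846-95145874, minus strand: tgtaggaagtgcaaAggatttttggaggg
ZNF514 chr2:95145847-95145875, minus strand: ttgtaggaagtgcaAaggatttttggagg
ZNF514 chr2:95146621-95146649, minus strand: ttgcacggcctacaAgataaatcctcacc
ZNF215 chr11:6964952-6964980, plus strand: gttttacatgcattAcatcatagtgaata
ZNF215 chr11:6965323-6965351, plus strand: tgcaatgatgtaaaAcctgtttttaaaca
ZNF891 chr12:133114444-133114472, minus strand: aggtaaaagttgcaAggaggtgggtgcaa

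The next sites were shown because the base on the other strand is part of a coding region of a neighbouring zinc finger gene.
ZNF891 chr12:133105828-133105856, minus strand: ttccttacatgcatAtggtttctctccag
ZNF891 chr12:133105995-133106023, minus strand: tcagtacattcataAggtttctccccagt
ZNF891 chr12:133106163-133106191, minus strand: tcaatgcattcataAggtttctctccagt
ZNF3 chr7:100064093-100064121, minus strand: ttggtgcacacgtaAggtttctccccagt

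The last set lies in coding regions (CDSs) of the host genes themselves, in codons that a change to G would recode. The study reports that annotated CDS sites held up in Sanger sequencing much less often than other annotated sites. Some listed CDS sites failed it. Whether the sites printed here were among those tested was not examined, so they may be false calls.
ZNF551 chr19:57685285-57685313, plus strand: catttatttctcccAagaagagtgggagc
ZNF551 chr19:57685327-57685355, plus strand: tcagaggttcctgtActgcgatgtgatgc
ZNF586 chr19:57790376-57790404, plus strand: accttgacacttatAtcctccctgggtaa
ZNF235 chr19:44288863-44288891, minus strand: tcttggagtaaaatAtatctgaatgagac

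The sites were unevenly spread over the 32 genes. ZNF514 had 21 sites, ZNF551 14, ZNF586 13, ZNF215 10, ZNF654 8 and ZNF891 6. These 6 genes held 72 of the 108 sites (66.7%), and 18 genes held 1 site each. Sites within 100 bases of each other formed 59 clusters, of which 43 had 1 site and the largest, in ZNF514, had 14. Chromosome 19 carried 249 of the 516 ZNF genes (48.3%) and 8 of the 32 hosts. Among the sites called from RNA-seq, 34 of 107 ZNF sites (31.8%) lay on chromosome 19, against 79 of the 3985 other sites (1.98%). ZNF genes took up 1.62% of the bases in bodies of protein-coding genes and held 3.24% of the 3305 RNA-seq sites in such genes.

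**Figure D1:**
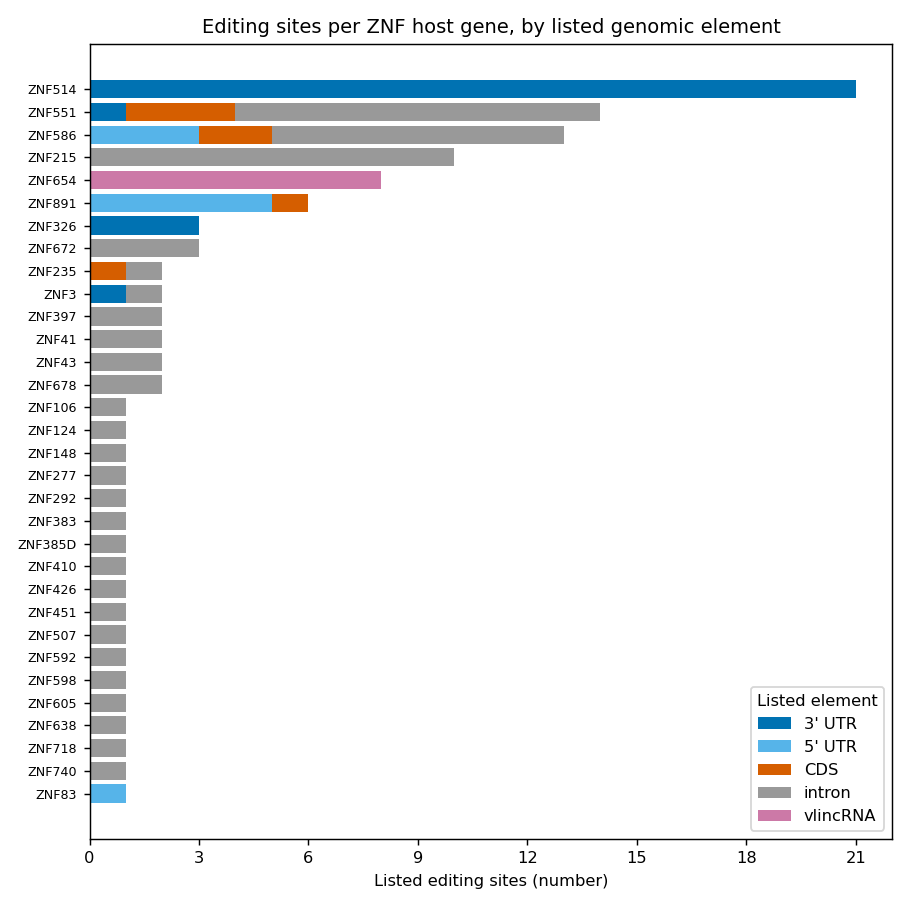
Number of listed editing sites in each of the 32 ZNF host genes (horizontal axis), with bars divided by the genomic element given in the list. ZNF514 leads with 21 sites, all in its 3′ UTR, and 18 genes have 1 site each.

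The genomic elements of the ZNF sites differed from those of the rest of the list in their shares. Introns held 57 of the 107 ZNF sites (53.3%), against 69.3% of the other sites. The 3′ UTR held 26 (24.3%, against 6.42%), 21 of them in ZNF514, and the CDS held 7 (6.54%, against 0.678%). The 5′ UTR was listed for 9 sites (8.41%, against 3.41%), but GENCODE release 44 places 8 of these in a 3′ UTR of the host, namely 5 in ZNF891 and 3 in ZNF586. The 8 sites of ZNF654 were listed as vlincRNA, very long intergenic non-coding RNA, although they lie in the gene body on its strand. A total of 37 sites lay beyond the canonical transcript of the host, including all 10 sites of ZNF215 and 11 of the 13 of ZNF586. A further gene on the same strand covered 37 sites, among them all 14 of ZNF551 and all 21 of ZNF514, so these sites cannot be told apart from sites in the transcript of that gene.

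The ZNF sites were also set beside the other sites by class and sequence, as a description without a test. They were annotated in public databases in 85 of 107 cases (79.4%, against 77.2%), and 81 (75.7%, against 69.1%) were detected by at least 2 of the tools. All 108 have A in the reference. The base before the site was T in 41.1% (against 49.6%) and A in 40.2% (against 33.6%), and G, the base that ADAR enzymes disfavour there, in 4.67% (against 3.74%). An inverted match, a stretch of at least 40 bases with at least 75% identity to the opposite strand within 5000 bases, overlapped the surroundings of 61 ZNF sites (57.0%), against 75.9% of the other sites. In 44 of the 61 the match itself held another member site. Copies of the surrounding 101 bases elsewhere in the genome, at 80% identity or more, existed for 47 ZNF sites (43.9%, against 30.1%). In 13 (12.1%, against 5.92%) such a copy had G at the site. Copies on either strand were counted, and some were the inverted match within the same gene, as in ZNF383, ZNF41, ZNF654 and ZNF672. A read misplaced from a copy with G on the same strand would look edited at the site. That this happened was not tested.

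ZNF514, a zinc finger gene on the minus strand (chr2:95122087-95165668), was the most frequently found host. Its 21 sites formed a cluster of 14 over 216 bases and one of 7 over 121 bases, 578 bases apart in the listed 3′ UTR. GENCODE release 44 places all 21 in a 3′ UTR of the gene and, in other coding transcripts, in an intron. The clusters faced each other as an inverted pair. All 21 sites had an inverted match of 57 to 106 bases with 81.8% to 91.4% identity, 544 to 886 bases away, and 20 of the matches held another ZNF514 site. At least 1 site was found in 73 of 96 samples, up to 13 sites were found in 1 sample, and 3 samples had at least 10. ZNF514 gave 357 of the 636 ZNF levels above 0 (56.1%), and 12 of the 15 ZNF sites found in at least 10 samples were its own. Sums over the ZNF sites are therefore largely sums over these ZNF514 sites.

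The site at chr2:95145860 was found in 61 samples, with a median level of 0.370 and a highest level of 0.8. The adjacent A at chr2:95145861, also printed above, was found in 47 samples with a lower median of 0.256. In the same cluster, chr2:95145931 was found in 45 samples (median 0.143), chr2:95145940 in 32 (median 0.12) and chr2:95145802 in 24 (median 0.174). The facing cluster was found less often, led by chr2:95146635 in 19 samples (median 0.238), chr2:95146591 in 16 (median 0.278) and chr2:95146700 in 12 (median 0.205). Over these 8 sites the medians ran from 0.12 to 0.370, and the highest belonged to the site found in the most samples.

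By treatment set, chr2:95145860 was found in 18 of the 19 samples with actinomycin D after another agent, where its level had a lowest value of 0.0769, a median of 0.350 and a highest value of 0.663. It was found in 8 of 10 alpha-amanitin samples (median 0.379), 7 of 9 wash-out samples (median 0.382), all 4 with rapamycin or Torin1 (median 0.293) and both with actinomycin D alone. Among the 26 samples with single agents, DMSO or no treatment it was found in 13 (median 0.435), and among the 16 of derivative lines in 7 (median 0.268). Only 2 of the 10 samples with a second agent after inhibitors or DMSO had it, at 0.333 and 0.400. The lowest to highest levels of the sets overlapped, except that both samples with actinomycin D alone, at 0.396 and 0.429, lay above the 4 with rapamycin or Torin1, which reached 0.362.

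**Figure D2:**
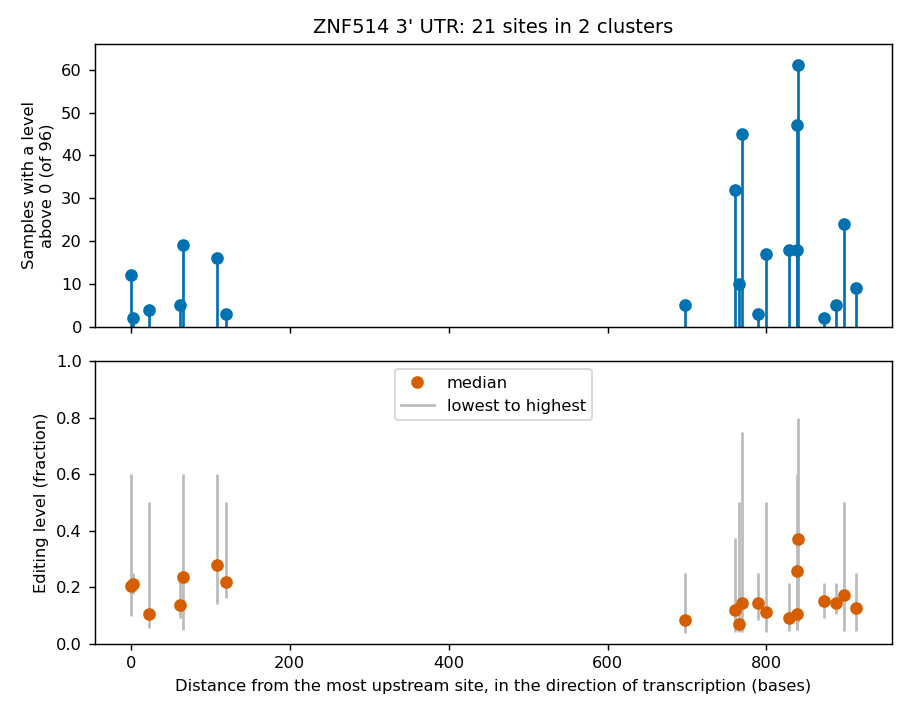
The 21 ZNF514 sites by distance from the most upstream site in bases, with the number of the 96 samples in which each was found (top) and, as an editing level fraction, the median as a point and the lowest to highest level as a line (bottom). The sites fall into clusters of 7 and 14, and the tallest line is the site found in 61 samples with a median of 0.370.

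ZNF514 sites were found in all 19 samples with actinomycin D after another agent and in all 10 with alpha-amanitin. In the actinomycin D samples, between 2 and 7 of its sites (median 4) were found in each of the 5 samples at 0 h, 3 to 10 (median 8) in the 5 samples at 2 h, and 5 to 8 (median 7) in the 5 samples at 6 h. In the alpha-amanitin samples, both 0 h samples had 8 or 9 sites, both 4 h samples 7 or 13 and both 6 h samples 2 or 8.

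ZNF215, a gene of the imprinted region at 11p15 (chr11:6926404-7001004, plus strand), had 10 intronic sites in clusters of 6 and 4 that face each other as shown by the sequences above. Of these, 9 had an inverted match of 73 to 84 bases with 75.3% to 79.8% identity, 323 to 420 bases away, and all 9 matches held member sites of the other cluster. The levels had a median of 0.444 over 28 samples. The site at chr11:6964966 was found in 12 samples (0.0526 to 0.625, median 0.447) and chr11:6965337 in 11 (0.333 to 0.6, median 0.5). A ZNF215 site was found in 15 of 19 samples with actinomycin D after another agent and in all 4 with rapamycin or Torin1. The gene had a found site in 1 of 10 alpha-amanitin samples, 3 of 26 with single agents, DMSO or no treatment, 3 of 10 with a second agent, 1 of 9 wash-out samples and 0 of 16 of derivative lines. Within the actinomycin D samples, 3 of the 5 at 0 h and all 5 at 6 h had a found site. Whether host RNA, reads or editing differed between those sets was not tested.

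ZNF654 (chr3:88059255-88144660, plus strand) had 2 clusters of 4 sites that matched each other as inverted copies with 82.9% to 87.4% identity over 87 to 106 bases, 2327 to 2608 bases apart. Its 24 levels came from 12 samples, and 16 of them from 5 of the 10 samples with a second agent after inhibitors or DMSO. Of its 8 inverted matches, 6 held another member site. The site at chr3:88069630 had the highest levels, 0.5 to 0.750 in 6 samples (median 0.604), whereas chr3:88067103 had 0.214 to 0.5 in 6 samples (median 0.348).

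ZNF326, which encodes a subunit of the DBIRD complex that links transcript elongation to splicing, had 3 sites in its 3′ UTR (chr1:89995110-90035533, plus strand) with inverted matches of 81.5% to 82.0% identity 1001 to 1031 bases away. At chr1:90031154 the levels were 0.181, 0.250 and 0.300, and chr1:90032190 had 0.118 in 1 sample. At chr1:90032220 the levels were 0.0900, 0.0900, 0.0910, 0.110, 0.110 and 0.304. Every one of these samples had been treated with actinomycin D or alpha-amanitin for at least 2 h. Samples with either agent for 1 h or more held 43.6% of the levels of all ZNF sites except the linker sites described below. For listed sites outside ZNF genes the share was 28.1%. The ZNF326 pattern was picked out after the values had been seen and was not tested. ZNF672 (chr1:248838210-248849517, plus strand) had 3 intronic sites, found in 3, 6 and 3 samples, with a median level over all of 0.536. No set of treatments stood out for ZNF672, whose 12 levels came from 12 samples.

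In ZNF891 (chr12:133104779-133130274, minus strand), the site at chr12:133114458 was found in 25 samples with levels from 0.293 to 0.879 and a median of 0.5. It had no inverted match and no copy elsewhere. It was found in 8 of 10 alpha-amanitin samples, 8 of 10 samples with a second agent after inhibitors or DMSO, 5 of 19 with actinomycin D after another agent, 4 of 26 with single agents, DMSO or no treatment, and in no derivative line. The coding site at chr12:133120938, base 3 of codon 327, leaves lysine unchanged. Its levels were 0.300 with etoposide for 36 h and 0.215 with AZ-20-KU-60019-NU7441 and then etoposide.

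The other 4 ZNF891 sites lay opposite the CDS of ZNF140, a zinc finger gene on the other strand, at spacings of 167, 168 and 169 bases. Across the members, 10 of 107 sites (9.35%) lay opposite a CDS, against 18 of 3985 other sites (0.452%), and 5 of those 18 were opposite a ZNF gene. In 7 of the 10, the opposite base was in the linker between adjacent fingers, 4 in ZNF140, 2 in ZSCAN30 (opposite ZNF397) and 1 in ZSCAN21 (opposite ZNF3). This feature, and ZNF397, were chosen after the values had been seen. Counted from the last histidine of the finger before it, 4 of the 7 sites faced base 3 of the codon for linker residue 5, a proline, and 3 faced base 1 of the codon for residue 6, a tyrosine.

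Lined up on the codon for residue 5, the bases after these 7 sites shared the letters GGNTTCTCNCCAG, where a letter stands for a base held by at least 80% of the sites and N for any base. Read on the other strand they encode part of the conserved linker. The letters stood in the 29 bases around 6 of the 7 sites they were derived from, so that this count is no test. Searched on both strands, they stood around 0 of the 100 other ZNF sites and 0 of the 3985 other listed sites.

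The 7 linker sites gave 31 levels in 18 samples, from 0.0400 to 0.5 with a median of 0.165. At chr12:133105842 the levels were 0.130, 0.170, 0.170 and 0.5. At chr12:133106009 there were 9, from 0.0900 to 0.230 with a median of 0.140, and chr12:133106177 had 0.143 and 0.245. All but 1 of these levels were at most 0.245.

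At chr12:133106346 the levels were 0.12, 0.235 and 0.5. The site at chr18:35253530 in ZNF397 had 0.0714 and 0.290, and its neighbour chr18:35253531 had 0.0900, 0.125 and 0.230. At chr7:100064107 in ZNF3, 8 levels lay between 0.0400 and 0.357 with a median of 0.157. In both neighbouring ZNF397 sites the same pair of samples, alpha-amanitin for 6 h and etoposide followed by alpha-amanitin for 2 h, carried levels.

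Most linker levels came from samples treated with a blocker of transcription. The 24 samples with actinomycin D or alpha-amanitin for 1 h or more, 25% of the 96, held 25 of the 31 levels (80.6%), against 43.6% of the levels of the other ZNF sites and 28.1% of those of the other listed sites. Of the 31 levels, 10 were from samples with actinomycin D after another agent, all in the 14 later samples and 0 in the 5 samples at 0 h. In the alpha-amanitin set, 14 levels were from the 8 samples treated for at least 2 h and 0 from the 2 samples at 0 h. The sample with actinomycin D alone for 2 h had 1. The other 6 levels came from samples without a blocker, 3 with a second agent after inhibitors or DMSO, 1 with Torin1 and 1 of the wash-out. The last was from the set with imatinib, etoposide, romidepsin, DMSO or no treatment, and the 16 derivative line samples had 0. These sites were grouped after their values had been seen, so no test was run, and expression of the neighbouring genes was not analysed here.

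ZNF551 (chr19:57681969-57717301, plus strand) had 14 sites, none with an inverted match. Its levels over 25 samples ran from 0.0300 to 0.833 with a median of 0.5. At chr19:57685299 a change to G would give Q40R in the canonical protein, and the adjacent base 3 of the codon at chr19:57685300 is synonymous. Both had a level of 0.5 in 1 and the same sample, AZ-20-KU-60019-NU7441 followed by mirin. For the second of these, 2 of 3 copies elsewhere had G.

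The site at chr19:57685341, which would give Y54C, was found in 6 samples with levels of 0.0300, 0.0900, 0.110, 0.160, 0.230 and 0.250 (median 0.135). Those samples came from 3 treatment sets, namely actinomycin D after another agent, single agents or DMSO, and wash-out. It had 12 copies elsewhere in the genome, of which 0 had G. The remaining ZNF551 sites were intronic, except 1 in a 3′ UTR. A cluster of 5 lay between chr19:57700203 and chr19:57700283 and includes the Sanger-only site at chr19:57700209, which has no level. Levels at chr19:57700206 were 0.6 and 0.8 and those at chr19:57700283 were 0.6 and 0.714.

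ZNF586 (chr19:57769655-57819939, plus strand) had 13 sites found in 23 samples, with levels from 0.0625 to 0.550 and a median of 0.231. The CDS site at chr19:57790390 would give I51M in transcripts other than the canonical one, with levels of 0.230 in DMSO for 12 h and 0.300 in etoposide followed by alpha-amanitin for 4 h. The CDS site at chr19:57819594 is synonymous, in a transcript other than the canonical one, with 0.111 in 1 sample. The most recurrent site, chr19:57819705, had levels of 0.167, 0.250, 0.267, 0.333, 0.429 and 0.5. Inverted matches of 81.0% to 84.1% identity joined 4 of the sites over 4501 to 4545 bases. At chr19:57814631, opposite a CDS of ZNF552, all 4 copies elsewhere had G.

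In ZNF235 (chr19:44228729-44305046, minus strand) the site at chr19:44288877 would give I186M and had a level of 0.250 in 1 sample, DMSO followed by mirin. Its intronic site at chr19:44273361, opposite a CDS of ZNF233, had 0.5 in the sample with imatinib for 48 h. The site with the highest median level among those found in at least 5 samples was chr19:21841884 in an intron of ZNF43, with 0.667, 0.750, 0.750, 0.8 and 1.00. Its inverted match of 52 bases with 86.5% identity lay 43 bases away.

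**Figure D3:**
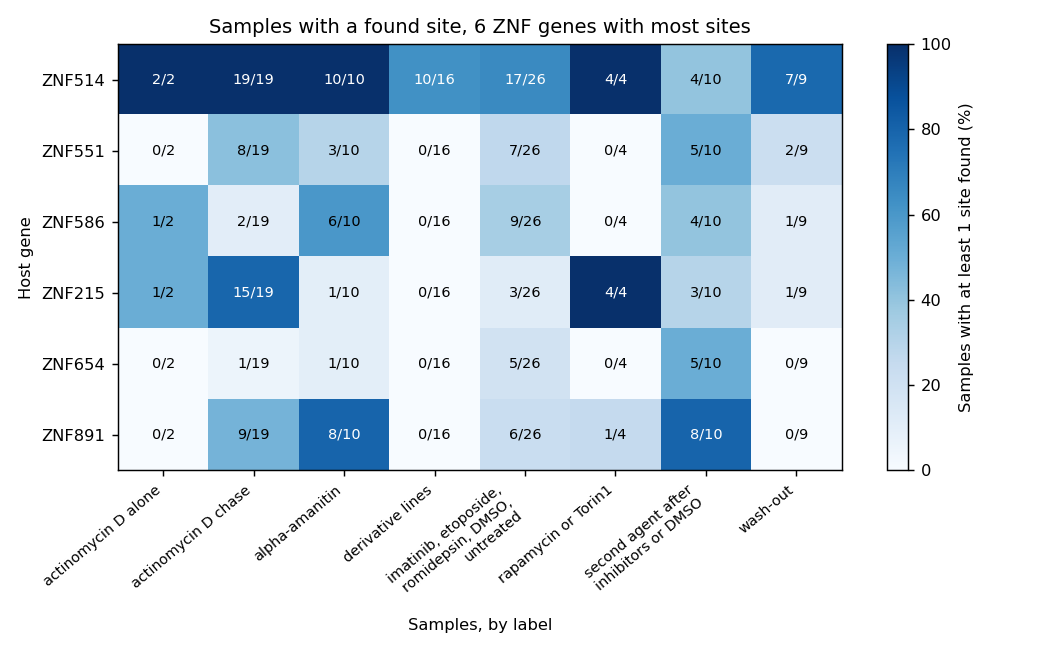
Number of samples with at least 1 found site for the 6 host genes with the most sites (rows) in each treatment set (columns), printed as found of all samples and shaded by the percent of samples. ZNF514 was found in every set, ZNF215 in 15 of 19 samples with actinomycin D after another agent (actinomycin D chase), and in the derivative lines only ZNF514 of these genes had a found site.

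Genes that work with ZNF proteins or edit RNA had few listed sites, and nothing is read from their number. Of the KRAB cofactors TRIM28, SETDB1, CBX1, CBX3, CBX5, ATRX, DAXX, MORC3, CHD4, HDAC1 and HDAC2, CBX3 had 1 listed site and the others 0. ADAR, ADARB1 and ADARB2, the editing enzymes and their paralog, had 0. Other C2H2 genes, with symbols starting with ZFP, ZKSCAN, ZSCAN, ZBTB, PRDM, ZIK or ZIM, held 24 sites in 12 genes.

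Recurrence over the 96 samples was nearly the same for ZNF sites and for the rest. Both had a median of 3 samples per site, 15 of the 107 ZNF sites were found in at least 10 samples against 14.2% of the other sites, and 6 (5.61%) in at least 20 against 5.42%. The 15 were the 12 of ZNF514, chr11:6964966 and chr11:6965337 in ZNF215 and chr12:133114458 in ZNF891. Without ZNF514, a setting that takes the most frequently found host from the ZNF side only, the median of the 86 remaining ZNF sites was 2 samples. A total of 19 ZNF sites were found in 1 sample, and 3 had no level in the 96 samples. Levels equal to 0.5 within 0.001 made up 69 of the 636 (10.8%), and 56 of 279 (20.1%) outside ZNF514, against 14.7% for the other sites. The read numbers behind such values were not analysed here.

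A sample had between 0 and 22 found ZNF sites, with a median of 6, and 7 samples had none. The share of the 107 ZNF sites found was 6.19% ± 4.65 (SD, n = 96 samples), against 5.88% ± 3.29 for the other sites, a mean difference of 0.314 points. The ZNF share was the higher in 50 of 96 samples, and the difference did not pass the test (permutation test over samples, two-sided, p = 0.513, adjusted p = 0.762, Benjamini-Hochberg over 10 tests). Within treatment sets the difference went both ways. It was 5.33 points in the alpha-amanitin set (higher in 9 of 10 samples) and 3.28 points in the set with actinomycin D after another agent (15 of 19). It was -3.68 points with single agents, DMSO or no treatment (6 of 26) and -1.56 points with a second agent after inhibitors or DMSO (4 of 10). Without ZNF514 the mean difference over the 96 samples turned to -2.50 points (permutation p = 2e-05, adjusted p = 0.0001). That setting took the most frequently found host from the ZNF side only, which lowers the ZNF share by construction, so nothing is concluded from it. With 1 site per cluster on both sides, the most upstream one, the mean difference turned to -2.15 points (permutation p = 2e-05, adjusted p = 0.0001). For ZNF514 this kept chr2:95146002 and chr2:95146700, found in 5 and 12 samples, and dropped the site found in 61. Nothing is concluded from this setting either.

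**Figure D4:**
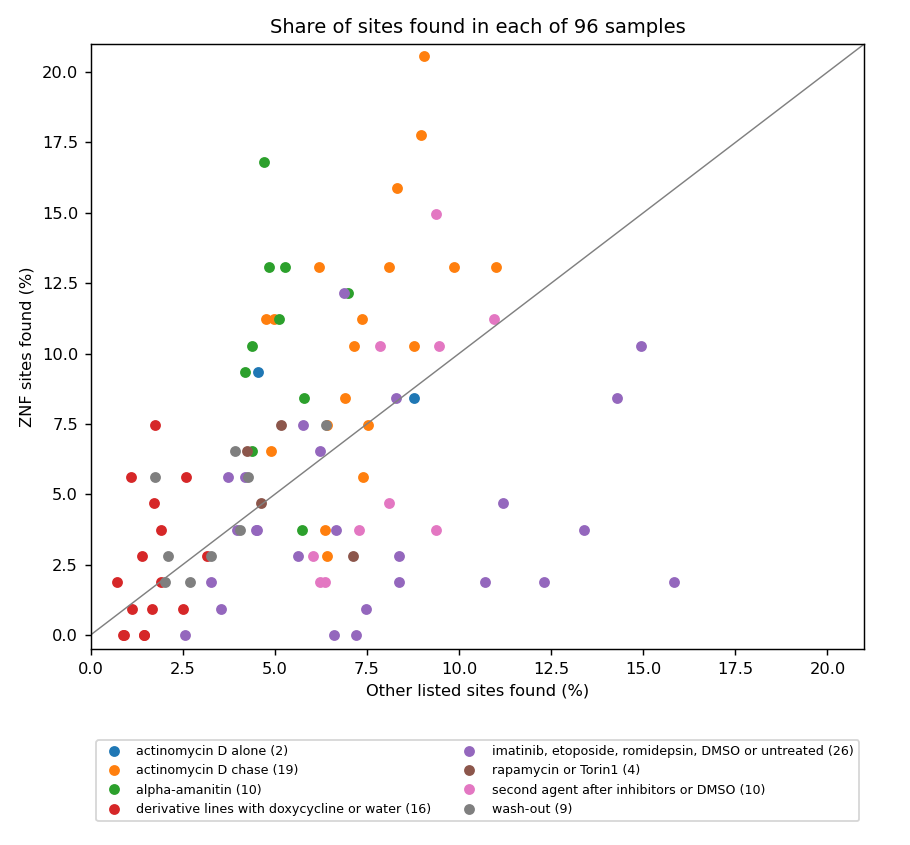
Each point is 1 of the 96 samples, with the percent of other listed sites found on the horizontal axis, the percent of ZNF sites found on the vertical axis, the line of equality and colours for the treatment sets (number of samples in brackets). In 50 of the 96 samples the point lies above the line, among them 9 of the 10 alpha-amanitin samples.

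Found ZNF sites had lower levels than the other found sites. In the 73 samples with at least 3 found ZNF sites, the mean level was 0.293 ± 0.102 against 0.380 ± 0.0358 (SD, n = 73), a difference of -0.0867. The ZNF mean was the higher in 13 of 73 samples (permutation test, two-sided, p = 2e-05, the smallest that 100000 resamples can give, adjusted p = 0.0002). The within-set difference was negative in every set except that with a second agent after inhibitors or DMSO (0.0558). Without ZNF514 the mean difference was -0.0133 and did not pass the test (permutation p = 0.431, adjusted p = 0.762).

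Each of 4 contrasts among the treatments was tested for the ZNF percent of all found sites, which stays the same when all sites are found less often in proportion. After actinomycin D for 1 h or more the percent was 4.22 ± 1.18 (SD, n = 14) against 2.41 ± 1.23 at 0 h (n = 5), with ranges of 2.60 to 5.94 and 1.16 to 4.15 that overlapped. At 6 h the percent was above that at 0 h for each of the 5 first agents, for example 5.36 against 1.99 after etoposide and 5.94 against 3.17 after DMSO. At 6 h fewer other sites were found than at 0 h, except after SN-38. Before 6 h the percent was below that at 0 h after DMSO at 1 h (3.05) and SN-38 at 2 h (3.10 against 4.15), and above it in the other samples. The difference of 1.81 points between all later samples and 0 h did not pass after adjustment (exact permutation test within first agent, two-sided, p = 0.0178, adjusted p = 0.0593), and it was 0.953 without ZNF514 and 0.698 with 1 site per cluster. With alpha-amanitin it was 5.32 ± 2.17 (n = 8) against 5.06 ± 0.836 at 0 h (n = 2), a difference of 0.263 points (exact permutation p = 0.933, adjusted p = 1). Without the 0 h sample after DMSO that difference turned to -0.328, and it was 1.18 without ZNF514. Neither difference passed the test, but with 2 samples at 0 h the alpha-amanitin test could not go below p = 0.0444 (exact permutation). Adjusted over the 10 tests such a p would not pass, so nothing is read from that outcome.

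In the derivative lines, doxycycline gave 2.66 ± 3.51 (n = 8) and water 4.96 ± 3.82 (n = 8). Doxycycline was the higher in 2 of 8 pairs of the same line and day, and the difference of -2.30 points did not pass (exact permutation p = 0.188, adjusted p = 0.375). Without ZNF514 it was -0.346 and with 1 site per cluster -0.930. Both groups ranged from 0 to over 10 percent in these samples with few found sites.

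The time course here means the samples with imatinib, etoposide, romidepsin or DMSO alone at 6, 12, 36 or 48 h. Samples of these agents at 2, 3 and 24 h were left out of the contrast. Samples at 36 or 48 h had a lower mean ZNF percent than samples at 6 or 12 h of the same agents. It was 0.860 ± 0.576 (n = 8) late and 2.13 ± 1.24 (n = 10) early, a difference of -1.27 points (exact permutation test within agent, two-sided, p = 0.00833, adjusted p = 0.0417). The ranges, 0.316 to 1.82 and 0 to 3.90, overlapped. Late samples lay below all early ones for DMSO (0.316 and 0.407 late, 3.36 to 3.90 early), imatinib and etoposide. For romidepsin, as named, they did not, with 0.334 and 1.11 late and 0, 0.704 and 1.49 early. The number of found ZNF sites was similar, with medians of 3 and 4, whereas the median number of other found sites was 512 late and 162.5 early. The call ended without ZNF514, where the difference was -0.200, and with 1 site per cluster, where it was -0.0481. With each of the 18 samples left out in turn, the difference stayed between -1.50 and -1.07, but the adjusted p passed in 3 of the 18, those without romidepsin for 6 h replicate 2, romidepsin for 12 h and romidepsin for 48 h, and reached 0.0694 in the others.

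**Figure D5:**
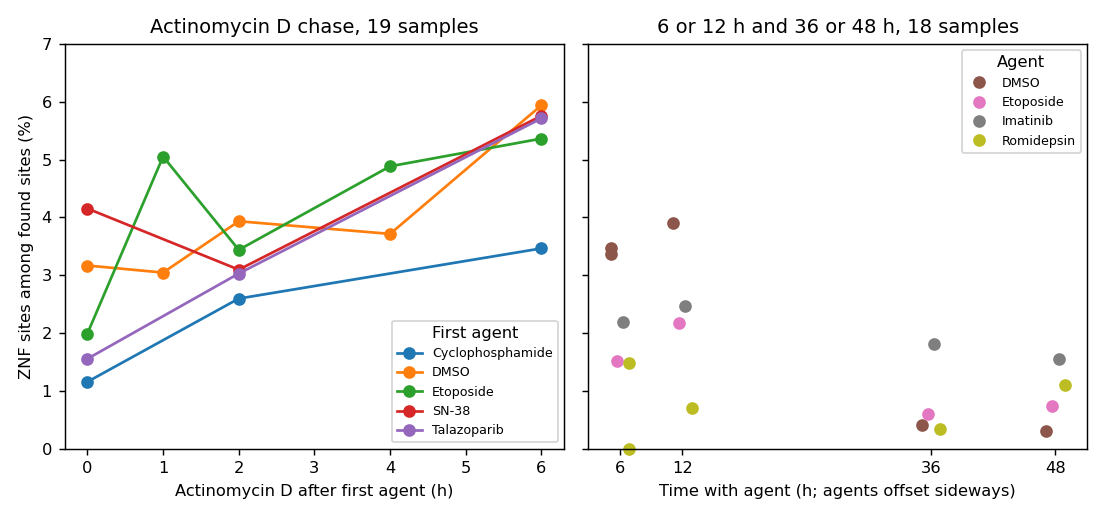
ZNF sites as percent of all found sites in each of the 19 samples with actinomycin D after another agent, by hours of actinomycin D with lines joining samples of the same first agent (left), and in the 18 time course samples by hours with the agent (right). All 5 lines end at 6 h above their value at 0 h, and the late samples reach at most 1.82 percent.

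Mean ZNF levels did not pass in any contrast. For alpha-amanitin and for the derivative lines no outcome could have passed after adjustment. The mean level was 0.285 ± 0.0490 (n = 14) after actinomycin D and 0.230 ± 0.0331 (n = 5) at 0 h, a difference of 0.0547 (exact permutation p = 0.0504, adjusted p = 0.126), and this difference was 0.00403 with 1 site per cluster and 0.0835 without ZNF514. The level was 0.275 against 0.248 for alpha-amanitin (exact permutation p = 0.533, adjusted p = 0.762), and 0.421 late against 0.414 early in the time course (exact permutation p = 0.944, adjusted p = 1). In the 5 pairs of derivative lines with a ZNF level in both samples it was 0.294 with doxycycline and 0.283 with water (exact permutation p = 1), where the smallest p the design allows is 0.0625.

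The 3 conditions with 2 samples show how far single samples repeat. In DMSO for 2 h the samples had 13 and 7 found ZNF sites, 2 of them in both. In DMSO for 6 h they had 6 and 8, with 4 in both, and in romidepsin for 6 h 4 and 0. Over all listed sites the numbers found in both samples were 89 of 287 and 255, 57 of 173 and 238, and 32 of 269 and 102. These pairs shared at most 4 equal levels and were kept as separate samples.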

How the data were processed

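RNA-seq was done by the authors on strand-specific libraries of rRNA-depleted total RNA from K562 cells and derivative lines. The labels name a NovaSeq instrument and the methods of the study a HiSeq instrument. Trimmed reads were aligned by the authors to GRCh38 and freed of duplicates. The authors called sites in each sample with REDItools, RED-ML and SPRINT, removed known variants, repeats and positions of low mappability, and selected sites over all their samples. The submitters' processing notes name TopHat2 2.1.1, Picard 2.0.1 and SAMtools 1.9. The deposited editing levels are a fraction averaged over the tools that detected a site in a sample. The list cannot show what those filters removed.

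Of 130 sample columns, 96 were used and the 34 of other samples were not. The untreated column was mapped by its group only. Members and lists were chosen with earlier results of these data known. Genes were taken from GENCODE release 44, and the authors used an earlier release. Values were given by rule for ZNF551, ZNF891 and ZNF235, genes with a CDS site, the 10 genes with the most sites, genes with a site found in at least 10 samples, and the site with the highest median level among those found in at least 5. ZNF397, the linker feature and its share of levels under transcription blockers were added after their values had been seen.

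Inverted matches and copies were searched with blastn 2.17.0, using 50 bases on each side of a site. The share of sites found and the mean level were compared between ZNF and other sites within a sample by flipping signs 100000 times, and contrasts of treatments by exact permutation over samples, all two-sided with the smaller tail doubled, and adjusted by the Benjamini-Hochberg method over 10 tests at a threshold of 0.05. As most conditions have 1 sample and nothing in the labels says that samples were separate cultures, p-values measure the spread between samples only. The tests were tried on simulated data. Python 3.11.15, numpy 2.4.6, pandas 2.3.3, pysam 0.24.0 and matplotlib 3.10.9 were used. Alternatives were 1 site per cluster (the most upstream), at least 2 tools, a level above 0.1, and leaving out ZNF514, sites in a further gene, or single samples. Further ones were other comparison sites, 1 element only, and other blocks. Leaving out sites opposite a CDS, sites with G in a copy, and each time course sample was chosen after seeing the data.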

Additional observations from a re-analysis of the deposited data

How the results depend on the processing

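Of 118 alternatives over the 10 results, 73 kept the direction and the side of the threshold. The share of sites found, ZNF minus other sites, turned negative with 1 site per cluster (-2.15 points), at least 2 tools (-0.00227), a level above 0.1 (-0.0213), without ZNF514 (-2.50), without sites in a further gene on the same strand (-2.28) and with intronic sites only (-2.16). The level difference no longer passed with 1 site per cluster (-0.0415), without ZNF514 (-0.0133), without sites in a further gene (-0.0167), with 3′ UTR sites only (-0.0296) or with intronic sites only (-0.0310). The late against early percent no longer passed with 1 site per cluster (-0.0481), without ZNF514 (-0.200), without sites in a further gene (-0.191), without the block (-1.27) or without etoposide and romidepsin (-2.05), and leaving out single samples gave -1.50 to -1.07.

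Among results that did not pass, leaving out ZNF514 or taking 1 site per cluster moved the percent to 0.953 and 0.698 for actinomycin D, to 1.18 and 1.76 for alpha-amanitin and to -0.346 and -0.930 for doxycycline, and the doxycycline level to 0.15 in both. The actinomycin D percent passed without the block (1.81) and without sites with G in a copy (1.87). The alpha-amanitin percent turned to -0.651 without sites opposite a CDS, and its range without single 0 h samples was -0.328 to 0.855. The alpha-amanitin level turned negative with 1 site per cluster (-0.108), without ZNF514 (-0.154) and without sites in a further gene (-0.132), and ran from -0.0262 to 0.0793 without single 0 h samples. The late against early level turned negative with 1 site per cluster (-0.0371), at least 2 tools (-0.0104), without ZNF514 (-0.120) and without sites in a further gene (-0.134). The doxycycline level turned negative with at least 2 tools (-0.0141) and without pairs (-0.00262). Leaving out ZNF514, or the sites in a further gene, which include all of ZNF514, lowers the number of sites by its own construction. Intronic sites only also leave out all of ZNF514, and 1 site per cluster keeps only its sites found in 5 and 12 samples. The cause of the other changes was not tested.

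No paired analysis was possible by replicate number because no compared groups share numbers that the labels give. Replicate 2 is shared by imatinib, etoposide and romidepsin for 6 h, all in the early group, and DMSO for 2 h, and the late samples carry no number. The pairs used were those of line and day in the derivative lines, and the blocks those of the agent. The depth at each site is unknown. Intervals for single levels are therefore not given, and a level of 0 is no measure of absent editing. With 2 samples at 0 h the alpha-amanitin tests could not go below p = 0.0444 (exact permutation), which would not pass after adjustment. The level in derivative lines could not go below 0.0625 (exact permutation). No sample of the contrasts stood apart from its group by the test for single outlying values in the 12 groups tested.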
